A study of Homo sapiens with 17 samples.

Results

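The genes described here are 42 genes of red cell formation: transcription and cell cycle factors, a globin chaperone, surface and blood group proteins, the membrane skeleton, the enzymes of haem synthesis, iron and mitochondrial carriers, and enzymes of red cell metabolism. They were given as a list of symbols without globins, and all 42 were matched to an Ensembl identifier among the 58302 of the count tables and the 28285 of the sorted-cell tables. The starting line was H1, human embryonic stem cells in long use as a cell line, made into endothelial cells chosen by a green fluorescent GATA2 reporter, and derived without (Vc-) or with (Vc+) vitamin C, a cofactor of histone and DNA demethylating enzymes. RNA was sequenced in 17 libraries. In 4 of them the sorted cells were read directly, 2 without and 2 with vitamin C. A course of 10 libraries followed re-plated cells at 0, 24, 36, 48 and 60 h, with 1 library for each time and condition; per the labels, the cells at 0 h were endothelial and those from 24 h on a mixture of endothelial and blood cells. Vitamin C was also given to the cultures behind the other 3 libraries, which were cells still adherent at 60 h (again a mixture, per the labels), blood cells in suspension at 60 h and blood cells in suspension at 96 h. All cells came from 1 line, and the labels do not say if the libraries were made from separate cultures. The p-values therefore measure only the spread between these samples.

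Red cell precursors switch on a shared set of genes under GATA1, TAL1 and KLF1, and then fill with haemoglobin. Haem is built by a chain of enzymes that begins and ends in the mitochondrion, is fed with iron taken up through the transferrin receptor, and in red cells begins with the erythroid enzyme ALAS2 in place of the general enzyme ALAS1. The red cell membrane rests on a net of spectrin and actin, which ankyrin, adducin, dematin and related proteins tie to the anion exchanger SLC4A1 and to the glycophorins. Blood formation in the embryo passes through an endothelium that releases cells into suspension, and red cells are among the earliest cells it gives.

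The 13 count libraries held 6214675 to 11058345 counts, so 1 count stood for 0.0904 to 0.161 CPM (counts-per-million, by library total), and the level of 3 counts was 0.271 to 0.483 CPM. The 10 endothelial markers were all detected in the 3 fraction libraries and summed to 14507 CPM in the adherent cells, 2887 CPM in suspended cells of 60 h and 1120 CPM in suspended cells of 96 h. The 10 globin genes summed to 11.8 CPM in the adherent cells, 913 CPM in the suspended cells at 60 h and 10536 CPM at 96 h, and at 0 h to 4.27 CPM (Vc-) and 1.49 CPM (Vc+). The 42 genes together made up 0.113% to 0.150% of each course library, 0.355% of the library of suspended cells at 60 h and 0.837% of that at 96 h. Of the 42, the 96 h suspended cells had the highest level among the 13 libraries for 39, the 60 h suspended cells for KEL and ALAS1, and the 36 h library with vitamin C for CA2.

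**Figure D1:**
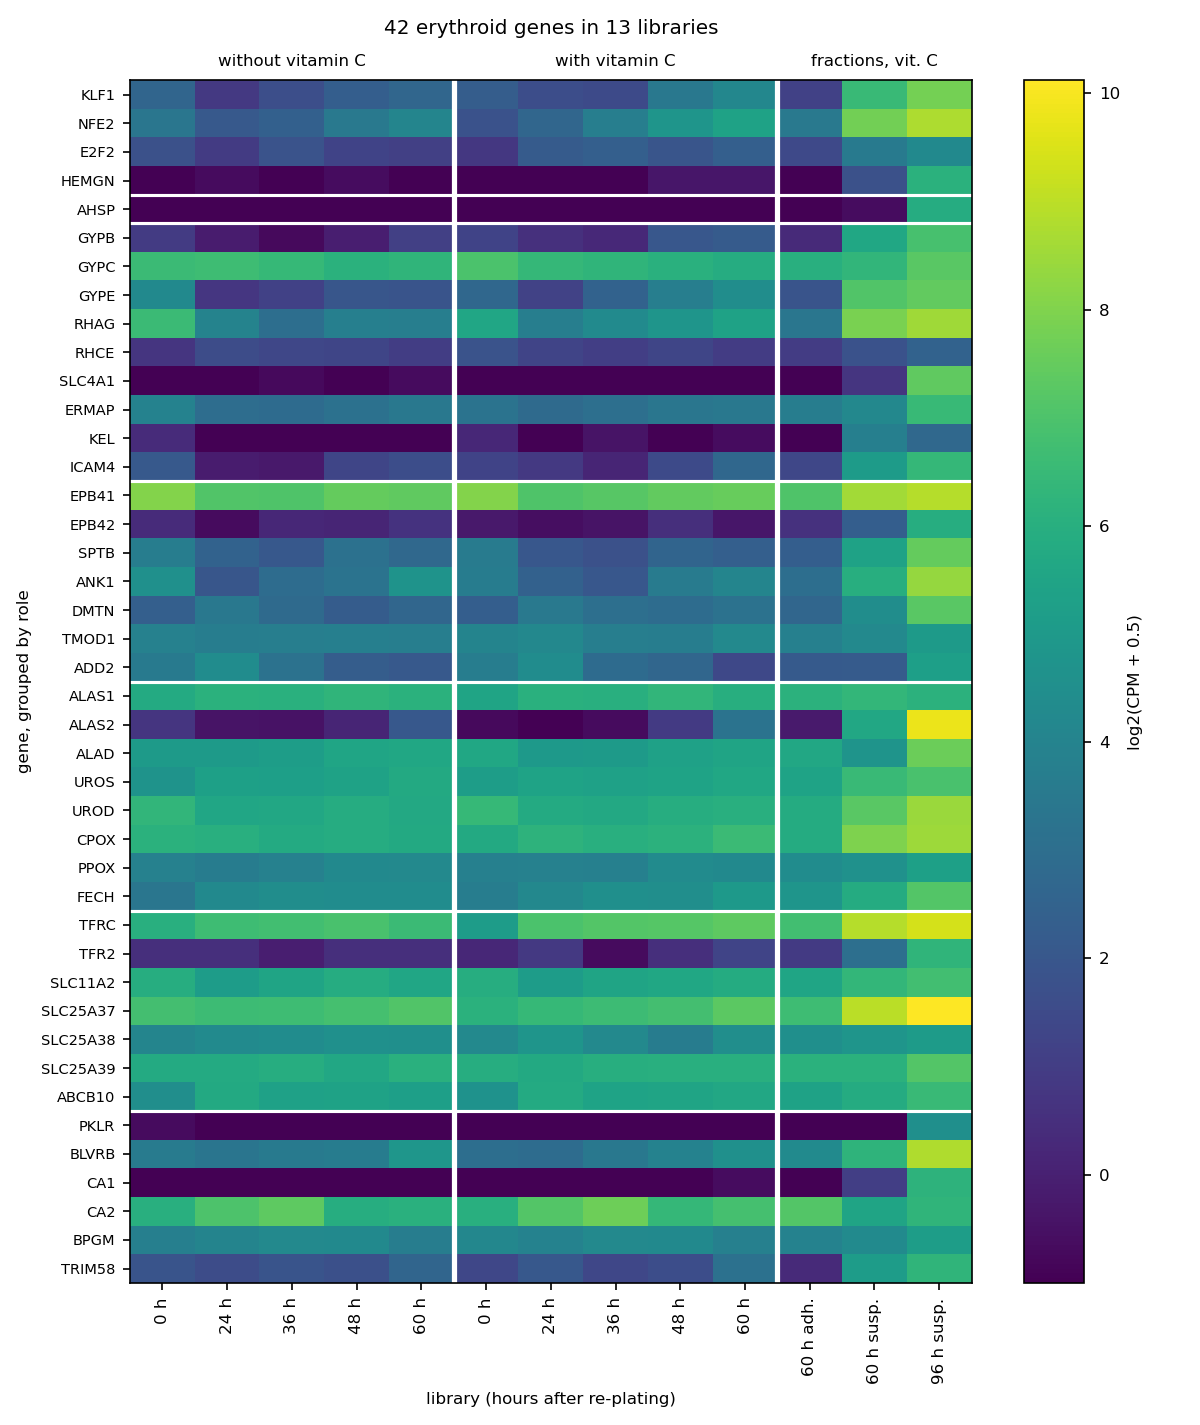
Level of each of the 42 genes (rows, grouped by role, white lines between roles) in the 13 count libraries (columns), as log2(CPM + 0.5), with 1 library per column. The suspended cells at 60 and 96 h, the last 2 columns, hold the highest values for all genes except CA2.

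Promoters from RefSeq (GRCh38.p14) were found for 32 of the 42 genes, with 46 start sites in all. Those of 5 genes are printed because their genes carry the patterns described below: KLF1, GYPE and RHAG, high in suspended cells by 60 h, ALAS2, highest at 96 h, and TFRC, the iron receptor. Each line gives the 250 bases before the start site, 5′ to 3′ on the gene's strand, with capitals at matches of 2 motifs, searched on both strands. GATAA is the core of the GATA factor motif. CCNCNCCC is a core of the motif of KLF factors. Overlapping matches run together.
KLF1, chr19:12887202-12887451, minus strand: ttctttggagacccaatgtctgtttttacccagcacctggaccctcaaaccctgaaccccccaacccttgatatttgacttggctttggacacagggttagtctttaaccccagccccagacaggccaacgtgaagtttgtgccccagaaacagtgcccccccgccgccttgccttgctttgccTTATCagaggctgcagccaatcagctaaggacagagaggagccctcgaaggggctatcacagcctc
GYPE, chr4:143905560-143905809, minus strand: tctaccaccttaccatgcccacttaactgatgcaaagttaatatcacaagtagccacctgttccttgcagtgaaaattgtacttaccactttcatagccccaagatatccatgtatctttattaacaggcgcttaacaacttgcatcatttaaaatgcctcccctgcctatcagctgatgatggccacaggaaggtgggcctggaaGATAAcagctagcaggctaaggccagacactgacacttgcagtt
RHAG, chr6:49636840-49637089, minus strand: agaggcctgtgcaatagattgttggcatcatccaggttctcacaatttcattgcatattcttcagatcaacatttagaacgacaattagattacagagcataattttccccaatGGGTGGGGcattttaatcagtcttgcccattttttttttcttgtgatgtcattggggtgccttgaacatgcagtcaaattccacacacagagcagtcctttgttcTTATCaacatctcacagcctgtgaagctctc
ALAS2, chrX:55030978-55031227, minus strand: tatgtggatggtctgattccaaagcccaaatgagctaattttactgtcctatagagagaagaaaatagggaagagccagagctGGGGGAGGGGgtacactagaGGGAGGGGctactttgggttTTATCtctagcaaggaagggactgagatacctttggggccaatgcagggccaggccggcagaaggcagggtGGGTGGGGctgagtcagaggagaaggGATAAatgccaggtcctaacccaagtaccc
TFRC, chr3:196082091-196082340, minus strand: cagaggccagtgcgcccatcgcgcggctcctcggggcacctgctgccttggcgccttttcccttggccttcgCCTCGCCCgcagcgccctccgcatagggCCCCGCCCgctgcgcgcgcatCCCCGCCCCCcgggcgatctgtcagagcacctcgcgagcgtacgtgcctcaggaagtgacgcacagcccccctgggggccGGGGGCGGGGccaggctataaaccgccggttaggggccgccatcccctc
GATAA stood in 18 of the 46 member windows (39.1%) and in 20.4% of the 35116 windows of all RefSeq start sites. The CCNCNCCC letters stood in 32 of the 46 (69.6%) and in 53.4% of all windows. In KLF1 the GATAA match ran from 66 to 62 bases before the start, in GYPE from 44 to 40, and in RHAG from 31 to 27. ALAS2 held GATAA both at 127 to 123 and at 30 to 26 bases before the start, beside 4 matches of CCNCNCCC. The TFRC window held 6 matches of CCNCNCCC and no GATAA. A match describes the letters and says nothing of binding in these cells.

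Suspended cells were set against adherent cells at 60 h, both with vitamin C, to show which of the genes marked the cells that had left the layer. Each fraction was 1 library, so there was no replicate check, and a gene was called where the ratio was past 2-fold and the exact 95% Poisson intervals of the counts did not overlap. The intervals hold only the error of counting reads, and the reads carried no molecular identifiers. By this rule 26 of the 40 members at 1 CPM or more in either library were higher in suspended cells and 1 was lower, where 12.2% of 16562 genes were higher and 13.7% lower. The members' median log2 ratio, with 0.5 CPM added, was 1.76, and that of all genes 0.13. In these bulk samples, a larger share of cells of a type and more RNA per cell cannot be told apart.

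Among the factors, all 4 were higher in the suspended cells. KLF1, the Krüppel-like factor that activates beta-globin and many other red cell genes, stood at 1.72 CPM in the adherent cells (interval 0.943 to 2.89) and at 93.7 CPM in the suspended cells (86.7 to 101), 54.3-fold apart. NFE2, a bZIP factor of red cells and megakaryocytes, stood at 10.8 and 216 CPM, and E2F2, an E2F factor of the erythroid cell cycle, at 2.22 and 11.6 CPM. HEMGN, a nuclear protein of blood cells, had no count in the adherent library (interval 0 to 0.454 CPM). In the suspended one it stood at 2.87 CPM (1.76 to 4.44), 7.78-fold the level of 3 counts in the adherent library. AHSP, the chaperone of free alpha-globin, had no count in the adherent library and 1 count in the suspended one, below the level that 3 counts give.

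Of the 9 surface proteins 6 were higher in suspended cells and none was lower. GYPB, a glycophorin with blood group antigens, stood at 0.739 CPM in adherent and 49.3 CPM in suspended cells, and GYPE, its close relative, at 3.20 and 135 CPM. RHAG, the partner protein of the Rh antigens, stood at 9.73 and 233 CPM, 23.9-fold apart. ICAM4, an adhesion protein of the red cell surface, stood at 2.09 and 33.5 CPM. KEL, the Kell blood group protein, had no count in the adherent cells (interval 0 to 0.454 CPM). In suspended cells it stood at 13.5 CPM (10.9 to 16.5), 36.6-fold the level of 3 counts in the adherent library. SLC4A1, the anion exchanger, also had no count in the adherent cells (0 to 0.454 CPM). In suspended cells it stood at 1.15 CPM (0.496 to 2.27), 3.11-fold the level of 3 counts, and the intervals nearly met. GYPC, a glycophorin that anchors the membrane skeleton and is found in many cell types, differed little, at 64.4 and 78.8 CPM. The values of RHCE, which carries Rh antigens, were 1.48 and 3.02 CPM, and those of ERMAP, of the Scianna blood group, 12.8 and 17.5 CPM; neither was called. GYPB and GYPE are near-identical to each other, and RHCE to RHD, so reads may have been split between them.

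In the membrane skeleton 5 of 7 genes were higher in suspended cells. EPB41, which ties spectrin to actin and to GYPC, stood at 133 CPM in adherent and 379.6 CPM in suspended cells. SPTB, the beta chain of spectrin, stood at 4.44 and 41.7 CPM, and ANK1, the ankyrin that links spectrin to SLC4A1, at 7.52 and 62.0 CPM. DMTN, the actin-bundling protein dematin, stood at 5.79 and 21.1 CPM, and EPB42, which binds SLC4A1, at 0.986 and 4.46 CPM. TMOD1, which caps actin filaments, was at 13.7 and 18.4 CPM, and ADD2, the beta chain of adducin, at 3.94 and 4.02 CPM; these were not called.

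Of the haem enzymes, 5 of 8 were higher in the suspended cells and none was lower by the rule. ALAS2 went from 3 counts in the adherent library (0.370 CPM) to 49.9 CPM, a ratio of 135 with a counting interval of 45.8 to 658. Along the pathway, UROS stood at 43.4 and 91.7 CPM, UROD at 56.4 and 156 CPM, CPOX at 56.1 and 247 CPM, and FECH, which inserts the iron, at 27.0 and 57.6 CPM. CPOX, the mitochondrial enzyme that oxidises coproporphyrinogen, had the widest ratio after ALAS2, at 4.41-fold. ALAS1 (70.8 and 82.1 CPM) and PPOX, the oxidase before FECH (20.9 and 24.0 CPM), were not called. ALAD, the porphobilinogen synthase, went the other way with 51.0 CPM in adherent and 26.6 CPM in suspended cells, a ratio of 0.521 that fell short of the rule. With TMM scaling over the 13 libraries, which took the median of all genes from 0.13 to 0.02, 24 members were higher and 2 lower.

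For iron uptake, TFRC, the transferrin receptor, stood at 106 CPM in adherent and 468 CPM in suspended cells, TFR2, its iron-sensing relative, at 1.36 and 7.91 CPM, and SLC25A37, the mitochondrial iron importer mitoferrin, at 100.3 and 506 CPM. These 3 of 7 were called. SLC11A2, the endosomal iron transporter, stood at 46.4 and 82.6 CPM, and ABCB10, a mitochondrial transporter that stabilises mitoferrin, at 41.9 and 56.8 CPM. The glycine carrier SLC25A38 (22.9 and 27.7 CPM) and SLC25A39, a carrier of glutathione (68.4 and 68.0 CPM), lay close together in the 2 fractions.

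Among the metabolic genes the pattern was mixed. TRIM58, a ubiquitin ligase of late erythroblasts, stood at 0.739 CPM in adherent and 34.9 CPM in suspended cells, 47.3-fold apart, and BLVRB, a flavin and biliverdin reductase abundant in red cells, at 19.6 and 74.7 CPM. CA1, a red cell carbonic anhydrase, had no count in the adherent cells (interval 0 to 0.454 CPM). In the suspended ones it stood at 1.58 CPM (0.789 to 2.83), 4.28-fold the level of 3 counts in the adherent library. CA2, a carbonic anhydrase also found in many other cell types, was the only one of the 40 lower in suspended cells by the rule, at 141 CPM in adherent and 44.7 CPM in suspended cells. BPGM, which makes the bisphosphoglycerate that lowers oxygen affinity, stood at 14.9 and 19.7 CPM. PKLR, the red cell and liver pyruvate kinase, had no count in either library. Its intervals were 0 to 0.454 CPM in the adherent and 0 to 0.530 CPM in the suspended cells.

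Other genes of the same pathways were counted in lists of their own. Of 18 other erythroid regulators, 12 were higher in suspended cells and none lower, GATA1 with 3.45 CPM in adherent and 136 CPM in suspended cells among them. Of 15 other membrane genes measured, 6 were higher and 3 lower, and of 25 other haem and iron genes 7 were higher and 2 lower. All 9 globins measured were higher. The suspended cells also held more of other blood lineages: of 7 megakaryocyte markers measured 6 were higher and 1 lower, with a summed level over the list of 267 CPM in adherent and 1070 CPM in suspended cells and GP1BB and GP6 at 0 in both. Of these sums VWF, the marker that was lower, made up 209 CPM in adherent and 32.3 CPM in suspended cells. For 10 myeloid markers the sums were 45.3 and 342 CPM, with CD14 and AIF1 at 0 in both. GP1BB, GP6 and AIF1 had no count in any count library. In the sorted cells they stood at 7 to 59.84, 0.89 to 7.7 and 13.87 to 42.49 TPM (transcripts-per-million). The 0 values of these genes were therefore not read as absence from the cells, and the cause of the difference was not tested. The 6 mast cell and basophil markers summed to 173 and 1016 CPM, of which GATA2, also a gene of endothelium and blood progenitors, was 172 and 965 CPM. Without GATA2 that list summed to 1.60 and 50.2 CPM, with TPSAB1 and TPSB2 at 0 in both. Mitochondrial genes took 5.80% of the counts in adherent and 7.44% in suspended cells at 60 h. The part of these lineages and of the mitochondrial share in the ratios of the members was not tested.

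**Figure D2:**
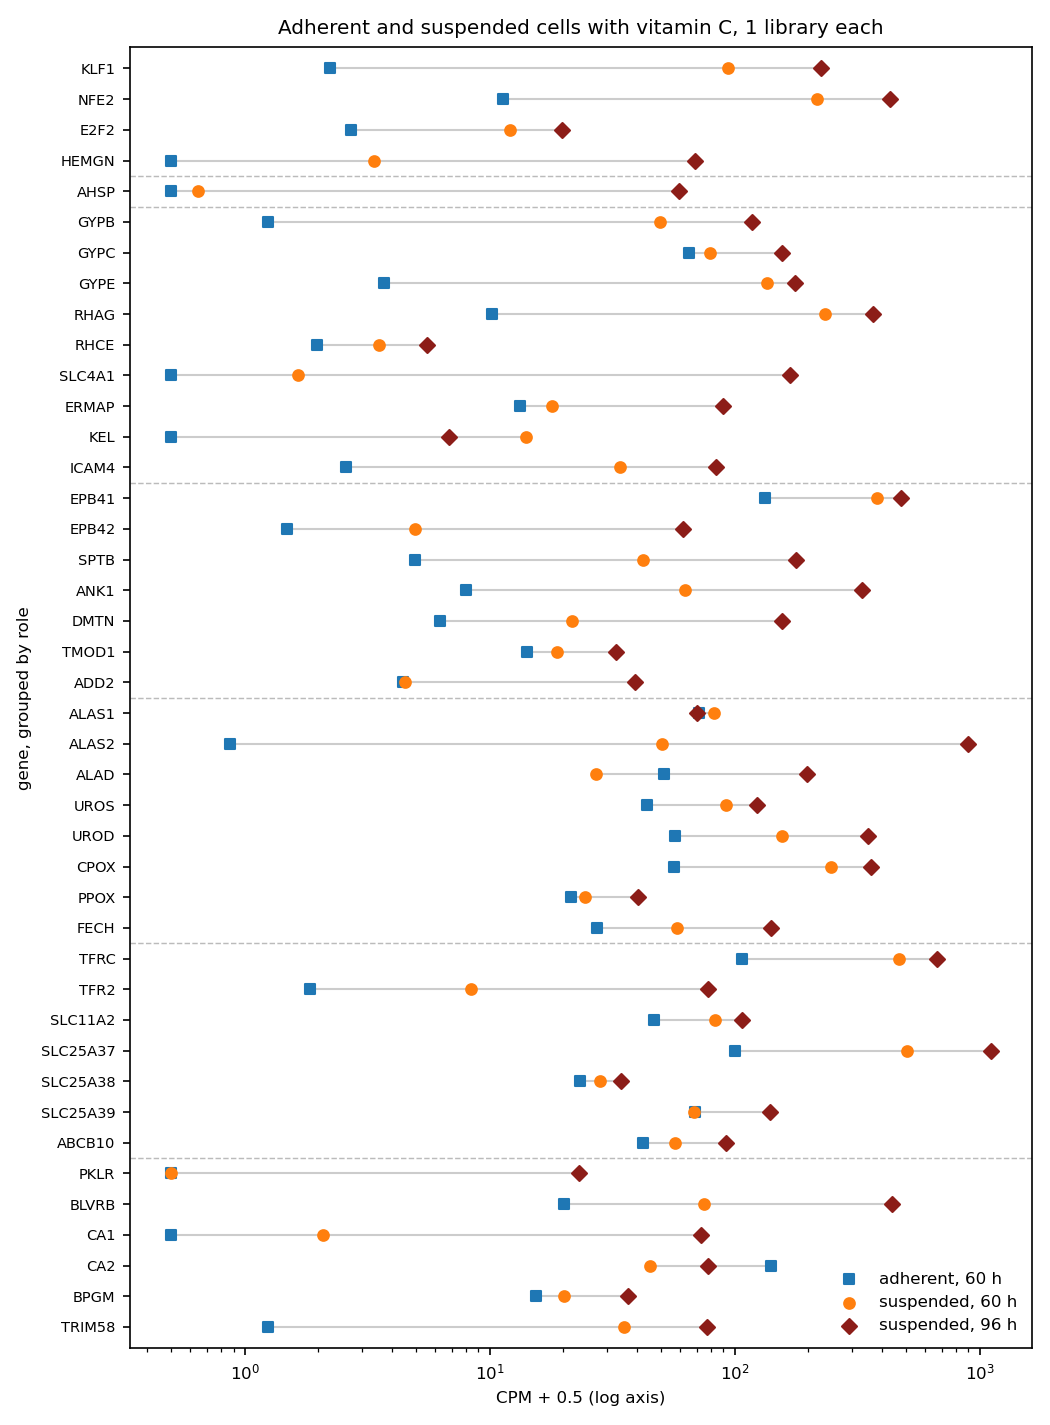
CPM + 0.5 (log axis) of each of the 42 genes in adherent cells at 60 h (squares), suspended cells at 60 h (circles) and suspended cells at 96 h (diamonds), 1 library each, all with vitamin C. For KLF1 (1.72, 93.7 and 225 CPM) the gap lies mainly between adherent and suspended cells, for SLC4A1 (0, 1.15 and 167 CPM) between 60 and 96 h.

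The suspended cells at 96 h were then set against those at 60 h. Of the 42 members, 23 were higher at 96 h by the same rule and 1, KEL, was lower, from 13.5 to 6.33 CPM. KEL was not called with 5 CPM added, at 4-fold, or with TMM scaling, which took the median of all genes from -0.19 to 0.01. Among 16303 genes 5.98% were higher and 11.5% lower. The members' median log2 ratio was 1.13 and that of all genes -0.19. Mitochondrial genes took 7.44% of the counts at 60 h and 9.66% at 96 h, and the part of that difference in the ratios was not tested. The 2 pairs share the 60 h suspended library, so their ratios are given side by side and not related to each other.

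Of the members at 135 CPM or more at 60 h, 6 were not called, while SLC25A37 and UROD, given below, were called higher. At 60 and 96 h NFE2 stood at 216 and 430.2 CPM, RHAG at 233 and 368 CPM, GYPE at 135 and 176 CPM, TFRC at 468 and 670 CPM, CPOX at 247 and 361 CPM and EPB41 at 379.6 and 476 CPM. None of these 6 was past 2-fold on the scale with 0.5 CPM added. KLF1 stood at 225 CPM at 96 h, 2.40-fold its 60 h level, GYPB at 117 CPM, ICAM4 at 83.2 CPM and TRIM58 at 76.4 CPM, and all 4 were called higher.

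A second set stood at 0 to 7.91 CPM at 60 h and was higher by the rule at 96 h. SLC4A1 went from 1.15 to 167 CPM, a ratio of 145, HEMGN from 2.87 to 68.3 CPM and CA1 from 1.58 to 72.5 CPM. AHSP went from 1 count to 58.5 CPM, a ratio of 407 whose counting interval ran from 72.8 to 16102. PKLR had no count at 60 h (interval 0 to 0.530 CPM). At 96 h it stood at 22.6 CPM (19.9 to 25.6), 52.4-fold the level of 3 counts at 60 h. EPB42 went from 4.46 to 60.8 CPM, TFR2 from 7.91 to 77.2 CPM and ADD2 from 4.02 to 38.8 CPM. ALAS2 was not in this set, since it already stood at 49.9 CPM at 60 h; it went to 899 CPM at 96 h.

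The skeleton and haem genes in between moved as follows. SPTB stood at 41.7 CPM at 60 h and 178 CPM at 96 h, ANK1 at 62.0 and 332 CPM and DMTN at 21.1 and 156 CPM, all called, whereas TMOD1, at 18.4 and 32.4 CPM, was not. ALAD, which had been lower in suspended than in adherent cells, stood at 26.6 CPM at 60 h and 197 CPM at 96 h. UROD (156 and 349 CPM) and FECH (57.6 and 140.4 CPM) were called, and UROS (91.7 and 123 CPM) and PPOX (24.0 and 40.0 CPM) were not. ALAS1 stayed at 82.1 and 70.0 CPM.

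SLC25A37 reached 1112 CPM at 96 h, the highest value of any member in CPM, from 506 CPM at 60 h, and SLC25A39 went from 68.0 to 139 CPM; both were called. BLVRB went from 74.7 to 438 CPM and ERMAP from 17.5 to 89.4 CPM, also called. Values that were not called were 78.8 and 155 CPM for GYPC, 82.6 and 107 CPM for SLC11A2, 56.8 and 91.4 CPM for ABCB10, and 27.7 and 33.7 CPM for SLC25A38. CA2 stood at 44.7 and 77.1 CPM, BPGM at 19.7 and 36.4 CPM, E2F2 at 11.6 and 19.2 CPM, and RHCE at 3.02 and 5.06 CPM. Megakaryocyte markers were also higher at 96 h, with a sum of 3893 CPM against 1070 CPM and 6 of 8 measured called higher, while mast cell and basophil markers summed to 396 CPM against 1016 CPM. Without GATA2, at 309 CPM against 965 CPM, the latter list stood at 86.5 CPM against 50.2 CPM, the reverse order. The part of these markers in the ratios was not tested. Of the other lists, 2 of 18 erythroid regulators were higher and none lower, GATA1 and EPOR, the erythropoietin receptor. Of 16 other membrane genes 9 were higher and 2 lower, of 25 other haem and iron genes 2 were higher and 2 lower, and of 10 globins 8 were higher.

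Per kilobase of exons, the order of the genes changed between the 2 times. The length used was the union of all annotated exons of a gene. It can exceed that of the transcripts made, so levels of different genes compare only roughly. At 60 h the highest suspended-cell levels were those of NFE2 (87.3 CPM per kb), RHAG (86.5), CPOX (76.5), GYPE (67.5), SLC25A37 (62.1) and TFRC (59.3). At 96 h they were those of ALAS2 (421 CPM per kb), BLVRB (259), NFE2 (174), KLF1 (140), RHAG (137) and SLC25A37 (137). Counting intervals overlapped at 60 h for NFE2 with RHAG, for GYPE with SLC25A37, and for SLC25A37, TFRC and the next gene, KLF1 (58.2), with one another. At 96 h those of KLF1, RHAG and SLC25A37 overlapped with one another, and no such order has a replicate check. Along the haem pathway the level of ALAS2 per length was 0.00620 of that of ALAS1 in the adherent cells, 0.722 in suspended cells at 60 h and 15.3 times it at 96 h. In the course it was 0.0623 at 60 h without and 0.169 with vitamin C.

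**Figure D3:**
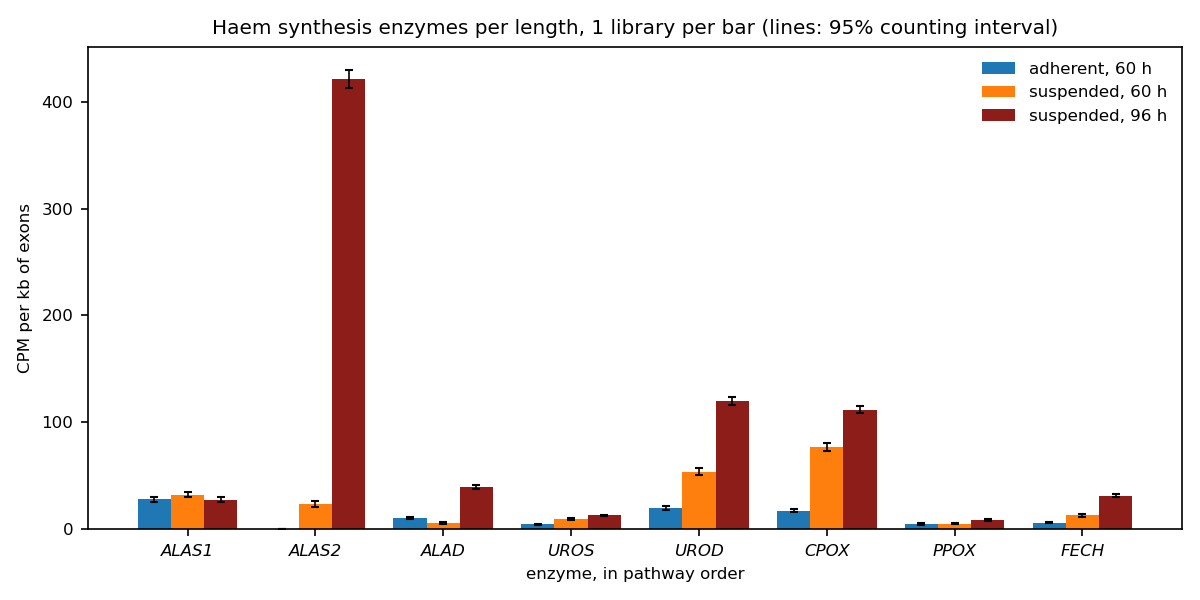
Level per kilobase of exons (bars, CPM per kb) of the 8 haem enzymes among the 42 genes, in pathway order, in adherent cells at 60 h and suspended cells at 60 and 96 h, with 1 library per bar and lines for the 95% counting interval. ALAS1 is level across the 3 libraries at 27.9, 32.4 and 27.6 CPM per kb, while ALAS2 stands at 0.173, 23.4 and 421. The length is the union of all annotated exons, so bars of different enzymes compare only roughly.

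In the course of unfractionated cells, the time points were compared over both conditions together, with edgeR's quasi-likelihood test and the time point and vitamin C as terms; 33 of the 42 members passed its filter on low counts, as did 14773 genes. These contrasts between time points were chosen after seeing the data. Between 0 and 24 h, 15 of the 33 members changed, 8 up and 7 down, where 34.8% of all genes changed. Between 24 and 60 h, 13 of the 33 changed, 11 up and 2 down, where 25.7% of all genes changed, 13.1% up and 12.6% down. Both contrasts use the 24 h libraries. Without the 24 h library without vitamin C, 9 members and 19.3% of all genes changed between 0 and 24 h. Between 24 and 60 h, 5 members and 14.1% of genes changed without the 24 h library with vitamin C. Without the 60 h library with vitamin C it was 4 members and 17.7% of genes, and without the 24 h library without vitamin C 4 members and 11.6%. DESeq2 did not call ADD2 and UROS in the former contrast, nor GYPB, GYPE and ALAD in the latter.

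KLF1, NFE2, GYPB and ICAM4 rose between 24 and 60 h. KLF1 stood at 5.69, 1.31, 2.73, 4.48 and 5.82 CPM at 0, 24, 36, 48 and 60 h without vitamin C and at 4.36, 2.57, 2.30, 10.5 and 17.3 CPM with it. NFE2 stood at 9.69, 3.79, 4.89, 10.8 and 16.4 CPM without and at 2.98, 5.79, 13.2, 27.2 and 42.4 CPM with vitamin C. From 24 to 60 h the log2 change was 2.49 ± 0.51 (SE, adjusted p = 0.00413) for KLF1 and 2.53 ± 0.56 (adjusted p = 0.00652) for NFE2. In both conditions KLF1 and NFE2 were higher at 60 h than at 24 h. GYPB, with 0.392 CPM at 24 h and 1.68 CPM at 60 h without vitamin C and 0.965 and 4.10 CPM with it, changed by 2.06 ± 0.67 (adjusted p = 0.0413). ICAM4, with 0.392 and 2.59 CPM without and 1.29 and 6.001 CPM with vitamin C, changed by 2.34 ± 0.66 (adjusted p = 0.0210). GYPB stood at 1.42, 0.114 and 0.463 CPM at 0, 36 and 48 h without and at 1.84, 0.727 and 3.51 CPM with vitamin C, and ICAM4 at 3.75, 0.341 and 2.01 CPM without and 1.84, 0.606 and 2.29 CPM with it.

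A second pattern was a high level in the endothelial cells at 0 h and a low at 24 to 36 h. How far the level then returned differed by gene and condition. Without vitamin C, RHAG at 60 h was below its 24 h level, and GYPE stayed far below its 0 h level. RHAG stood at 95.1, 15.2, 7.62, 13.3 and 12.9 CPM without vitamin C and at 46.8, 13.2, 19.3, 27.0 and 41.9 CPM with it. GYPE stood at 18.9, 1.18, 1.71, 3.39 and 3.23 CPM without and at 6.08, 1.77, 5.09, 12.8 and 21.2 CPM with vitamin C. ANK1 stood at 23.5, 3.40, 7.16, 8.80 and 25.5 CPM without and at 12.3, 4.99, 3.51, 11.9 and 16.0 CPM with vitamin C. Only the with-vitamin C library at 60 h exceeded its 0 h library for GYPE, whereas ANK1 ended above its 0 h level in both conditions and RHAG in neither. Between 0 and 24 h RHAG fell by 2.36 on the log2 scale (SE 0.50, adjusted p = 0.00333), GYPE by 3.35 (SE 0.88, adjusted p = 0.0117) and ANK1 by 2.04 (SE 0.39, adjusted p = 0.00188). From 24 to 60 h GYPE rose by 2.81 ± 0.88 (adjusted p = 0.0349) and ANK1 by 2.28 ± 0.39 (adjusted p = 0.00143); RHAG did not pass. Globins were also near 0 at 0 h, with HBA1, HBA2 and HBB at 0 in both 0 h libraries, and GATA1 stood there at 0.905 CPM in the Vc- and 0.230 CPM in the Vc+ library.

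Other skeleton genes also fell early. EPB41 stood at 267, 136, 134, 180.2 and 171 CPM without and at 269.5, 134, 151, 176 and 186 CPM with vitamin C, and SPTB at 12.7, 5.23, 3.64, 8.49 and 6.21 CPM without and 11.7, 3.54, 2.91, 5.50 and 4.68 CPM with it. EPB41 fell by 0.97 (SE 0.10, adjusted p = 2.70e-05) between 0 and 24 h and rose by 0.39 ± 0.10 (adjusted p = 0.0137) to 60 h, and SPTB fell by 1.48 (SE 0.30, adjusted p = 0.00285) and did not pass from 24 to 60 h. DMTN and ADD2 went the other way between 0 and 24 h. DMTN stood at 4.65, 10.3, 6.59, 4.17 and 5.82 CPM without and at 4.48, 10.8, 7.75, 7.03 and 8.64 CPM with vitamin C, a rise of 1.23 ± 0.31 to 24 h (adjusted p = 0.00951). ADD2 peaked at 24 h in both conditions, at 11.1, 20.6, 8.64, 4.32 and 3.75 CPM without and 12.7, 20.4, 6.91, 5.96 and 2.20 CPM with vitamin C, and fell by 2.78 (SE 0.32, adjusted p = 0.000115) from 24 to 60 h.

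The general haem enzymes moved less and in both directions. ALAS1 (0.44 ± 0.12, adjusted p = 0.0152), UROS (0.43 ± 0.15, adjusted p = 0.0426) and FECH (0.75 ± 0.21, adjusted p = 0.0155) rose between 0 and 24 h, and UROD fell by 0.70 (SE 0.12, adjusted p = 0.000710). ALAS1 stood at 56.0, 68.9, 65.5, 77.3 and 69.0 CPM without and at 45.1, 66.3, 64.0, 78.2 and 62.9 CPM with vitamin C. UROS stood at 25.98, 39.2, 38.3, 41.7 and 52.9 CPM without and at 35.7, 43.0, 40.6, 42.9 and 49.3 CPM with it. Its lowest value was at 0 h in both conditions. FECH stood at 9.95, 19.1, 21.5, 20.7 and 20.9 CPM without and at 12.5, 17.9, 22.4, 22.3 and 31.9 CPM with vitamin C. UROD stood at 80.1, 47.4, 49.8, 58.2 and 52.5 CPM without and at 87.1, 54.7, 52.3, 60.0 and 64.1 CPM with it, highest at 0 h in both. ALAD rose by 0.55 ± 0.18 (adjusted p = 0.0380) from 24 to 60 h, with 33.2, 32.8, 35.5, 45.7 and 48.9 CPM without and 48.8, 30.7, 32.5, 40.8 and 44.9 CPM with vitamin C. CPOX stood at 67.7, 64.8, 54.8, 58.8 and 52.9 CPM without and at 53.4, 71.4, 64.8, 71.2 and 94.0 CPM with vitamin C, and did not pass either contrast between times.

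Iron genes split in the same way. TFRC rose by 1.18 ± 0.27 (adjusted p = 0.00539) and ABCB10 by 1.26 ± 0.13 (adjusted p = 3.16e-05) between 0 and 24 h, and SLC11A2 fell by 0.77 (SE 0.14, adjusted p = 0.00114) and then rose by 0.54 ± 0.14 (adjusted p = 0.0137) to 60 h. TFRC stood at 64.0, 99.8, 107, 123 and 96.2 CPM without and at 34.9, 126, 140.4, 145 and 163 CPM with vitamin C. ABCB10 stood at 21.97, 54.0, 41.2, 41.4 and 38.8 CPM without and at 24.6, 55.8, 43.9, 44.1 and 50.2 CPM with it, and SLC11A2 at 60.5, 35.3, 44.8, 58.6 and 46.8 CPM without and 61.0, 35.1, 44.0, 49.0 and 56.2 CPM with it. For these 3 genes the 0 h libraries stood apart from the 24 h libraries in both conditions. SLC25A37 stood at 112, 96.8, 101, 113 and 138 CPM without and at 69.2, 87.2, 98.3, 111 and 161 CPM with vitamin C, and rose by 0.70 ± 0.17 (adjusted p = 0.0107) from 24 to 60 h.

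Of the metabolic genes, BLVRB rose by 1.62 ± 0.25 (adjusted p = 0.000762) from 24 to 60 h, with 11.8, 9.41, 11.4, 12.0 and 28.1 CPM without and 7.58, 7.08, 10.3, 15.0 and 23.1 CPM with vitamin C. CA2 rose by 1.09 ± 0.16 (adjusted p = 0.000306) to 24 h and fell by 0.63 (SE 0.16, adjusted p = 0.0128) from there to 60 h. It peaked at 36 h in both conditions, at 64.1, 129, 163, 61.3 and 66.6 CPM without and 63.7, 141, 205, 84.5 and 114 CPM with vitamin C. GYPC stood at 95.5, 100.7, 85.7, 67.4 and 76.7 CPM without and at 125, 84.0, 77.9, 66.9 and 58.1 CPM with vitamin C.

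The late genes were all but absent from the course. AHSP had no count in any of the 10 libraries, CA1 had 1 count (0.146 CPM, at 60 h with vitamin C) and PKLR had 1 count (0.129 CPM, at 0 h without it). SLC4A1 had a count at 36 h (0.114 CPM) and at 60 h (0.129 CPM), both without vitamin C. HEMGN stood at 0, 0.131, 0, 0.154 and 0 CPM at the 5 times without vitamin C and at 0, 0, 0, 0.305 and 0.293 CPM with it. In these genes 0 counts allow up to 0.341 to 0.483 CPM, depending on the library. ALAS2, too low for the test's filter, stood at 1.16, 0.261, 0.227, 0.617 and 3.62 CPM without vitamin C and at 0.115, 0, 0.121, 1.37 and 8.93 CPM with it. EPB42 stood at 0.776, 0.131, 0.682, 0.617 and 1.03 CPM without and at 0.344, 0.161, 0.242, 0.916 and 0.293 CPM with vitamin C. TFR2 stood at 0.905, 0.915, 0.455, 0.926 and 0.905 CPM without and at 0.689, 1.29, 0.121, 0.916 and 1.90 CPM with it. ALAS2 was thus highest at 60 h in both conditions, and EPB42 and TFR2 kept to a few counts.

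Most other members that passed none of these tests were detected in every library from 0 h on, and KEL was not. TRIM58 stood at 3.23, 2.48, 3.18, 2.78 and 5.69 CPM without and at 2.07, 3.70, 2.06, 2.60 and 8.49 CPM with vitamin C. ERMAP stood at 14.9, 7.45, 6.82, 8.49 and 10.5 CPM without and at 8.84, 6.60, 7.75, 9.77 and 10.5 CPM with it, and TMOD1 at 14.3, 12.5, 12.96, 13.4 and 12.9 CPM without and 15.8, 17.7, 12.96, 12.5 and 18.6 CPM with it. TRIM58 was highest at 60 h in both conditions, and TMOD1 varied by less than a factor of 2 throughout. PPOX stood at 14.1, 12.3, 14.4, 19.0 and 18.2 CPM without and at 13.9, 14.3, 13.8, 20.01 and 19.2 CPM with vitamin C, and BPGM at 13.6, 15.7, 18.1, 19.1 and 12.8 CPM without and 17.0, 15.0, 18.1, 18.6 and 14.1 CPM with it. SLC25A38 stood at 16.3, 19.6, 21.0, 23.1 and 23.0 CPM without and at 18.4, 27.2, 18.1, 12.1 and 21.8 CPM with it, and SLC25A39 at 55.2, 54.3, 60.7, 51.1 and 65.6 CPM without and 60.8, 53.6, 61.4, 63.7 and 64.7 CPM with it. Over the 10 libraries E2F2 ran from 1.26 through a median of 2.96 to 4.72 CPM, RHCE from 1.16 through 1.96 to 3.10 CPM and KEL from 0 through 0 to 0.776 CPM.

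Other lists shared the time pattern in part. Between 0 and 24 h none of 18 other erythroid regulators rose and 7 fell, 3 of 13 other membrane genes rose and 4 fell, and 4 of 25 other haem and iron genes rose and 6 fell. Between 24 and 60 h the counts were 6 up and 2 down, 3 up and 3 down, and 7 up and 1 down, and both globins tested, HBE1 and HBG2, rose. The endothelial markers summed to 9136 and 10068 CPM at 0 h and to 12763 and 13960 CPM at 24 h, without and with vitamin C, and the 4 markers of pluripotent cells to 638 and 605 CPM at 0 h and 282 and 254 CPM at 24 h, with POU5F1 and NANOG at 0 in the 0 h library without vitamin C. Their part in the changes was not tested. At 0 h LIN28A made up 530 CPM of the pluripotent sum without and 453 CPM with vitamin C. POU5F1 stood at 1.15 to 14.61 TPM in the sorted cells, so its 0 was not read as absence from the cells.

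**Figure D4:**
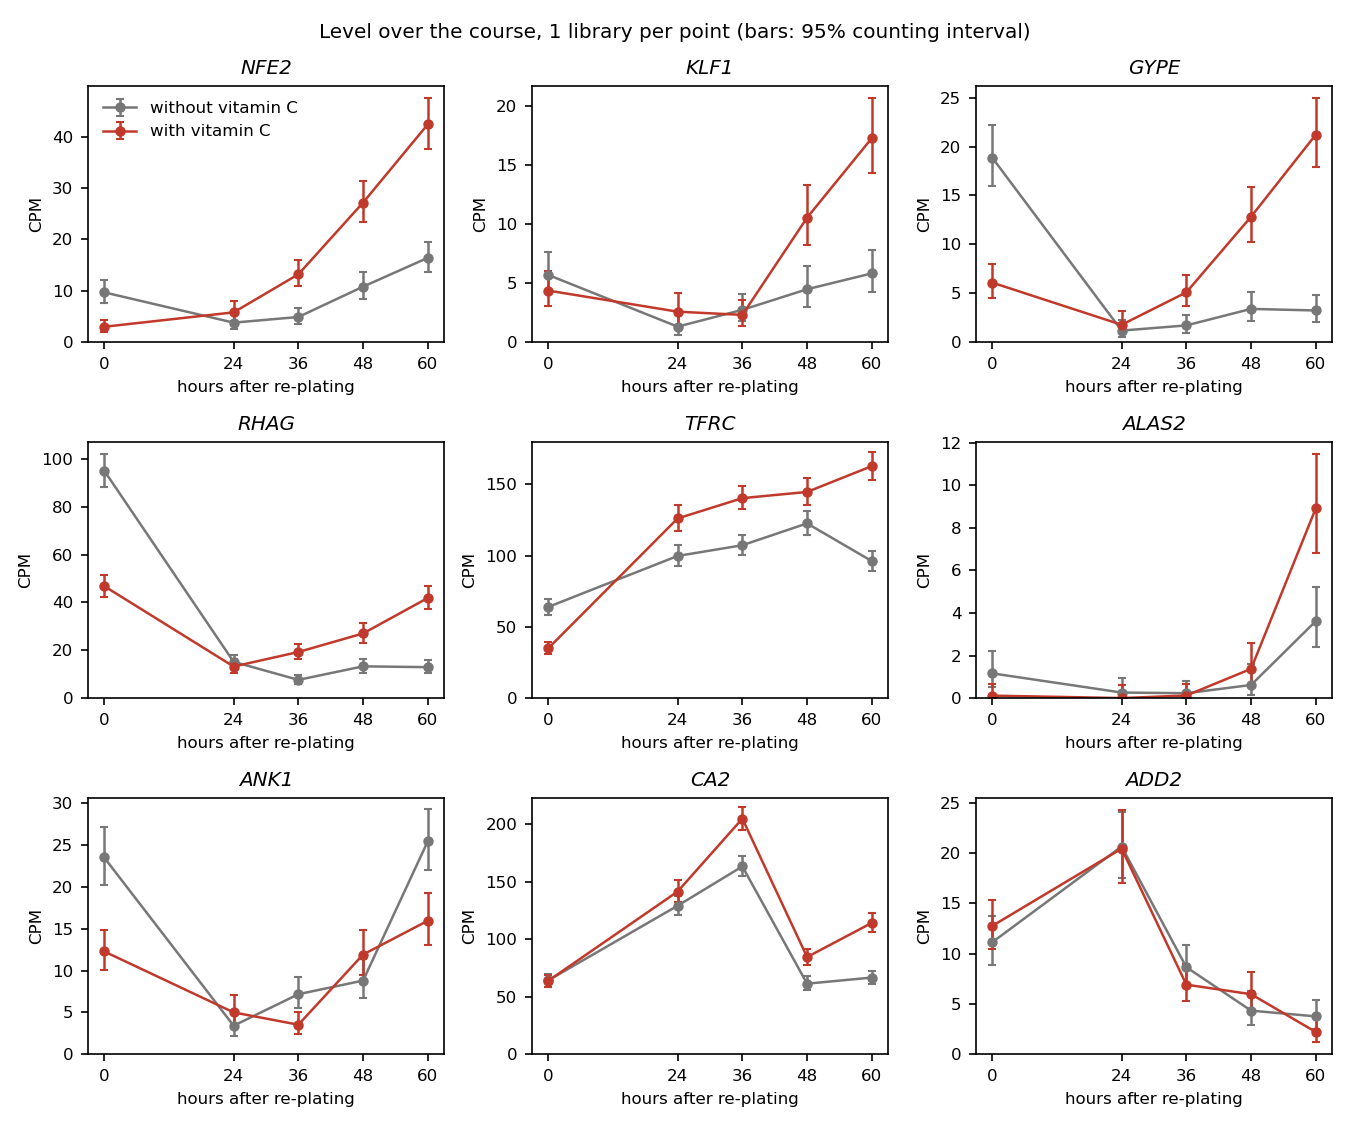
CPM of 9 of the genes against hours after re-plating, without (grey) and with (red) vitamin C, with 1 library per point and bars for the 95% counting interval. NFE2, KLF1, GYPE and ALAS2 end highest in the 60 h library with vitamin C, while ANK1 at 60 h is higher without it (25.5 against 16.0 CPM) and ADD2 and CA2 peak at 24 and 36 h.

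The order of onset was read as the hour from which a gene stayed at 1 CPM or more. In both conditions 31 of the 42 were already at that level at 0 h and throughout, among them KLF1, NFE2, RHAG, GYPE and all haem enzymes but ALAS2. With vitamin C, GYPB, ICAM4 and ALAS2 followed from 48 h and TFR2 from 60 h. Without it, ICAM4 followed from 48 h and GYPB, EPB42 and ALAS2 from 60 h. By this rule an earlier level of 1 CPM or more does not count if the level fell again. At 0 h, without and with vitamin C, GYPB (1.42 and 1.84 CPM) and ICAM4 (3.75 and 1.84 CPM) were past 1 CPM. ALAS2 without vitamin C was also past it at 0 h (1.16 CPM). With vitamin C at 24 h, ICAM4 and TFR2 each stood at 1.29 CPM. HEMGN, AHSP, SLC4A1, KEL, PKLR and CA1 had not reached 1 CPM by 60 h in either condition. Of these 6, HEMGN, SLC4A1, KEL and CA1 were at 1 CPM or more in the suspended cells at 60 h, and AHSP and PKLR in those at 96 h alone. KEL stood at 3.57 to 24.6 TPM in the sorted endothelial cells. Its low counts in the course were therefore not read as absence from the cells, and the cause of the difference was not tested. The unfractionated 60 h library with vitamin C lay between the adherent and suspended libraries of that hour for 29 of the 40 members at 1 CPM or more in either of these, or 72.5%, against 59.8% of 16562 genes chosen in the same way.

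Straight lines over hours, fitted for each condition and scaled to the whole 60 h, asked which genes moved steadily. With vitamin C NFE2 rose by 4.04 ± 0.74 on the log2 scale (adjusted p = 0.0347) and SLC25A37 by 1.13 ± 0.22 (adjusted p = 0.0425), and GYPC fell by 1.08 (SE 0.20, adjusted p = 0.0358). These 3 were 3 of the 33 members tested, where edgeR called 1.46% of all genes, 0.819% rising and 0.636% falling. Without vitamin C UROS alone rose, by 0.92 ± 0.21 (adjusted p = 0.0402), 1 of 33 against 4.16% of genes, 2.21% rising. For the difference between the lines edgeR called 0 of 33 members and 0 genes, with 5 members and 2.81% of genes at an unadjusted p under 0.05, and DESeq2 called 0 members and 10 genes. NFE2 (3.18 ± 0.94), GYPE (4.60 ± 1.53), CPOX (1.02 ± 0.27), SLC25A37 (0.84 ± 0.30) and RHAG (2.80 ± 1.13) were those 5, each with an adjusted p of 1.00. The calls with vitamin C rested on few libraries: without any of its 5 libraries, or without the 48 h library of the other condition, 0 members were called, without that condition's 36 h library NFE2 alone, and without its 0 h library 5. UROS was lost without the 36, 48 or 60 h library of either condition and without the 0 h library without vitamin C.

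The effect of vitamin C was then asked across the 5 times, with time as a factor. Over all 10 libraries edgeR called 0 of 33 members, where it called 6.25% of genes, 2.52% higher and 3.73% lower. At an unadjusted p under 0.05 there were 2 members, against 19.1% of genes, GYPB (log2 difference 1.43 ± 0.43, SE, adjusted p = 0.0750) and CA2 (0.32 ± 0.10, adjusted p = 0.0845), and DESeq2 also called 0. At 0 h several members stood lower with vitamin C, and from 24 h on higher. NFE2 was lower with vitamin C at 0 h and higher at each of the 4 later times, as was TFRC. GYPE was lower at 0 h and higher at the 4 later times, and RHAG lower at 0 and 24 h and higher at 36, 48 and 60 h.

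Without the 0 h pair, edgeR called 6 of 32 members, all higher with vitamin C, where it called 8.04% of genes, 3.47% higher and 4.57% lower. NFE2 was higher by 1.24 ± 0.17 (adjusted p = 0.000223), GYPE by 1.90 ± 0.31 (adjusted p = 0.000964) and RHAG by 0.99 ± 0.22 (adjusted p = 0.0116). TFRC was higher by 0.43 ± 0.09 (adjusted p = 0.00494), CPOX by 0.37 ± 0.10 (adjusted p = 0.0413) and CA2 by 0.41 ± 0.09 (adjusted p = 0.0107). All of these but RHAG were higher at 4 of 4 times, RHAG at 3 of 4. The median of the 32 members was 0.07 and that of all genes 0.01. No member of the membrane skeleton was called, with the median of its 6 tested members at -0.04. Leaving out only the 0 h library without vitamin C, or only that with it, gave 7 members, GYPB added, beside 7.80% and 7.71% of all genes. With no filter on low counts and all times, 5 members were called, NFE2, GYPB, GYPE, RHAG and CA2, beside 5.13% of genes.

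The difference itself, between the effect at 24 to 60 h and that at 0 h, was tested in the same model with an added term, a contrast chosen after seeing the data. It was positive for NFE2 (2.94 ± 0.44, adjusted p = 0.00322), GYPE (3.54 ± 0.57, adjusted p = 0.00510), RHAG (2.02 ± 0.41, adjusted p = 0.0242) and TFRC (1.30 ± 0.21, adjusted p = 0.00484), 4 of 33 members, where 1.33% of genes were called, 0.575% upward and 0.758% downward. It shares the libraries of the preceding contrast and rests at 0 h on 1 library per condition. The model fits the libraries of 0 h exactly. The p-values therefore take their spread from 24 to 60 h alone and measure none at 0 h.

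Hour by hour, among members at 1 CPM or more in either library, 15 of 34 were higher with vitamin C at 0 h, 18 of 33 at 24 h, 16 of 31 at 36 h, 23 of 34 at 48 h and 24 of 36 at 60 h. The share of all genes was 50.7% at 0 h, 50.6% at 48 h and 53.0% at 60 h. At 60 h the log2 ratios, with 0.5 CPM added, were 2.54 for GYPE, 1.66 for RHAG, 1.49 for KLF1, 1.34 for NFE2 and 1.19 for ALAS2, and -0.66 for both ANK1 and ADD2. Other lists moved beside these genes. Of 18 other erythroid regulators 8 were called higher without the 0 h pair and none lower, GATA1 and TAL1 among them, and of 25 other haem and iron genes SLC40A1, the iron exporter, was higher and ABCG2 and SLC46A1 lower. At 60 h the 10 globins summed to 56.5 CPM in the Vc- and 149 CPM in the Vc+ library, with HBB at 0 without it. The 8 pan-blood markers summed to 718 and 1350 CPM at 60 h and to 799 and 1650 CPM at 0 h. Of these sums CD34, which endothelium also expresses, was 459 and 958 CPM at 60 h and 499 and 1374 CPM at 0 h. Without CD34 the list stood at 259 and 392.3 CPM at 60 h and at 301 and 276 CPM at 0 h. PTPRC, the pan-leukocyte gene, had no count at 0 h in either condition and 0.293 CPM at 60 h with vitamin C. The 10 endothelial markers summed to 14065 and 12507 CPM at 60 h and the 6 mesenchymal markers to 1438 and 529 CPM. The part of the cell mixture in the differences was not tested.

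The sorted endothelial cells were asked for an effect of vitamin C before re-plating. Their tables hold TPM (transcripts-per-million) of unknown depth, so their levels are not set against the CPM of the course. Of the 34 members tested, limma called 0 on log2(TPM + 1), as it called 0 of 14421 genes, with 2.17% of genes and 3 members at an unadjusted p under 0.05: AHSP, EPB41 and ADD2. AHSP was listed at 0 in both libraries without vitamin C and at 1.18 and 3.23 TPM in those with it (log2 difference 1.60 ± 0.51, SE). EPB41 stood at 137 and 153 TPM in Vc- and at 69.0 and 96.1 TPM in Vc+ cells (-0.82 ± 0.27), and ADD2 at 11.6 and 11.1 TPM in Vc- and 4.03 and 5.68 TPM in Vc+ cells (-1.09 ± 0.39). In all 3 the groups did not overlap, and each had an adjusted p of 1.00. Both libraries with vitamin C were above both without for 2 of the 34 members, against 9.09% of genes, and below for 6, against 19.3%.

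The libraries of a condition were far apart for several of the genes. KLF1 stood at 1.31 and 8.51 TPM in the libraries numbered 1 and 2 without vitamin C and was listed at 0 and at 9.44 TPM in those with it. NFE2 stood at 1.04 and 12.3 TPM in Vc- and at 0.550 and 8.23 TPM in Vc+ cells, GYPE at 1.05 and 14.6 TPM in Vc- and at 0 and 14.2 TPM in Vc+ cells, GYPB at 1.74 and 21.3 TPM in Vc- and 0.740 and 9.94 TPM in Vc+ cells, and RHAG at 8.37 and 57.6 TPM in Vc- and 0.900 and 31.5 TPM in Vc+ cells. For these 5 genes both libraries numbered 2 were above both numbered 1. The same held for 10 of the 34 members, against 17.9% of genes. UROD, at 93.0 and 184 TPM in Vc- and 82.6 and 203 TPM in Vc+ cells, was another of the 10. Others of the 34, among them DMTN, TMOD1, ALAD and FECH, had the reverse order.

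For 2 of the 4 sorted libraries the sample title and the description give different vitamin C conditions. The titles were used above. Grouped by the descriptions, which give vitamin C to both libraries numbered 2, limma called 4 of the 34 members, all higher with vitamin C, where it called 1.08% of genes, 0.257% higher and 0.825% lower. These were KLF1 (2.71 ± 0.46, adjusted p = 0.0467), NFE2 (2.64 ± 0.38, adjusted p = 0.0343), GYPB (2.84 ± 0.45, adjusted p = 0.0402) and GYPE (3.43 ± 0.43, adjusted p = 0.0297). Which of the labels is right cannot be told from them, and the replicate number and the condition given by the descriptions cannot be told apart.

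Values of the remaining members in the sorted cells follow, with the libraries numbered 1 and 2 without vitamin C and then those with it. GYPC was the highest member, at 273 and 265, then 204 and 311 TPM, and CA2 stood at 105 and 84.5, then 174 and 92.5 TPM. Among the skeleton genes, ANK1 stood at 6.80 and 10.3, then 1.23 and 7.56 TPM, SPTB at 2.49 and 2.78, then 1.95 and 5.09 TPM, DMTN at 10.7 and 9.15, then 9.33 and 5.60 TPM and TMOD1 at 2.88 and 1.26, then 2.31 and 1.11 TPM. ICAM4 stood at 14.7 and 11.2, then 10.2 and 12.5 TPM and ERMAP at 5.73 and 5.95, then 11.6 and 5.64 TPM. ANK1 and SPTB were higher in both libraries numbered 2 than in both numbered 1. CA2, DMTN and TMOD1 had the reverse order, and GYPC, ICAM4 and ERMAP neither. Haem enzymes were present in every library: ALAS1 at 63.5 and 72.0, then 48.4 and 57.2 TPM, ALAD at 62.7 and 39.2, then 80.0 and 35.0 TPM, UROS at 48.9 and 44.6, then 66.4 and 45.6 TPM and CPOX at 44.1 and 43.1, then 37.6 and 46.8 TPM. PPOX stood at 25.6 and 20.9, then 24.8 and 24.9 TPM and FECH at 8.93 and 3.58, then 11.9 and 3.30 TPM. ALAS2 was listed at 0 in both libraries numbered 1 and at 0.930 and 0.900 TPM in those numbered 2. ALAD, UROS and FECH were lower in both numbered 2 than in both numbered 1. Of the iron genes, TFRC stood at 15.7 and 16.5, then 12.2 and 6.46 TPM, TFR2 at 1.43 and 1.12, then 0.520 and 1.37 TPM, SLC11A2 at 40.8 and 39.0, then 32.6 and 32.0 TPM and SLC25A37 at 24.4 and 31.5, then 19.4 and 23.5 TPM. SLC25A38 stood at 22.1 and 20.6, then 23.2 and 22.04 TPM, SLC25A39 at 80.2 and 68.9, then 116 and 91.8 TPM and ABCB10 at 9.17 and 6.28, then 10.5 and 6.71 TPM. TFRC, SLC11A2 and SLC25A37 were lower in both libraries with vitamin C than in both without, and SLC25A39 higher, none past the test. SLC25A38 and ABCB10 were lower in both libraries numbered 2 than in both numbered 1. BLVRB stood at 36.9 and 35.5, then 32.1 and 37.3 TPM, BPGM at 22.5 and 28.2, then 22.9 and 26.9 TPM and TRIM58 at 0.690 and 0.860, then 0.640 and 0.990 TPM. SLC4A1 and HEMGN were listed at 0 in all 4 libraries. PKLR stood at 0.130 and 0.250, then 0 and 0.10 TPM, CA1 at 0.920 and 0, then 0 and 0.150 TPM and EPB42 at 0.420 and 0.560, then 0.560 and 0.740 TPM. E2F2 ran from 0.260 to 1.06 TPM and RHCE from 0.480 to 2.08 TPM. KEL, at 3.57 to 24.6 TPM here and at or below 0.776 CPM in every course library, differed between the kinds of table, which were made separately.

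**Figure D5:**
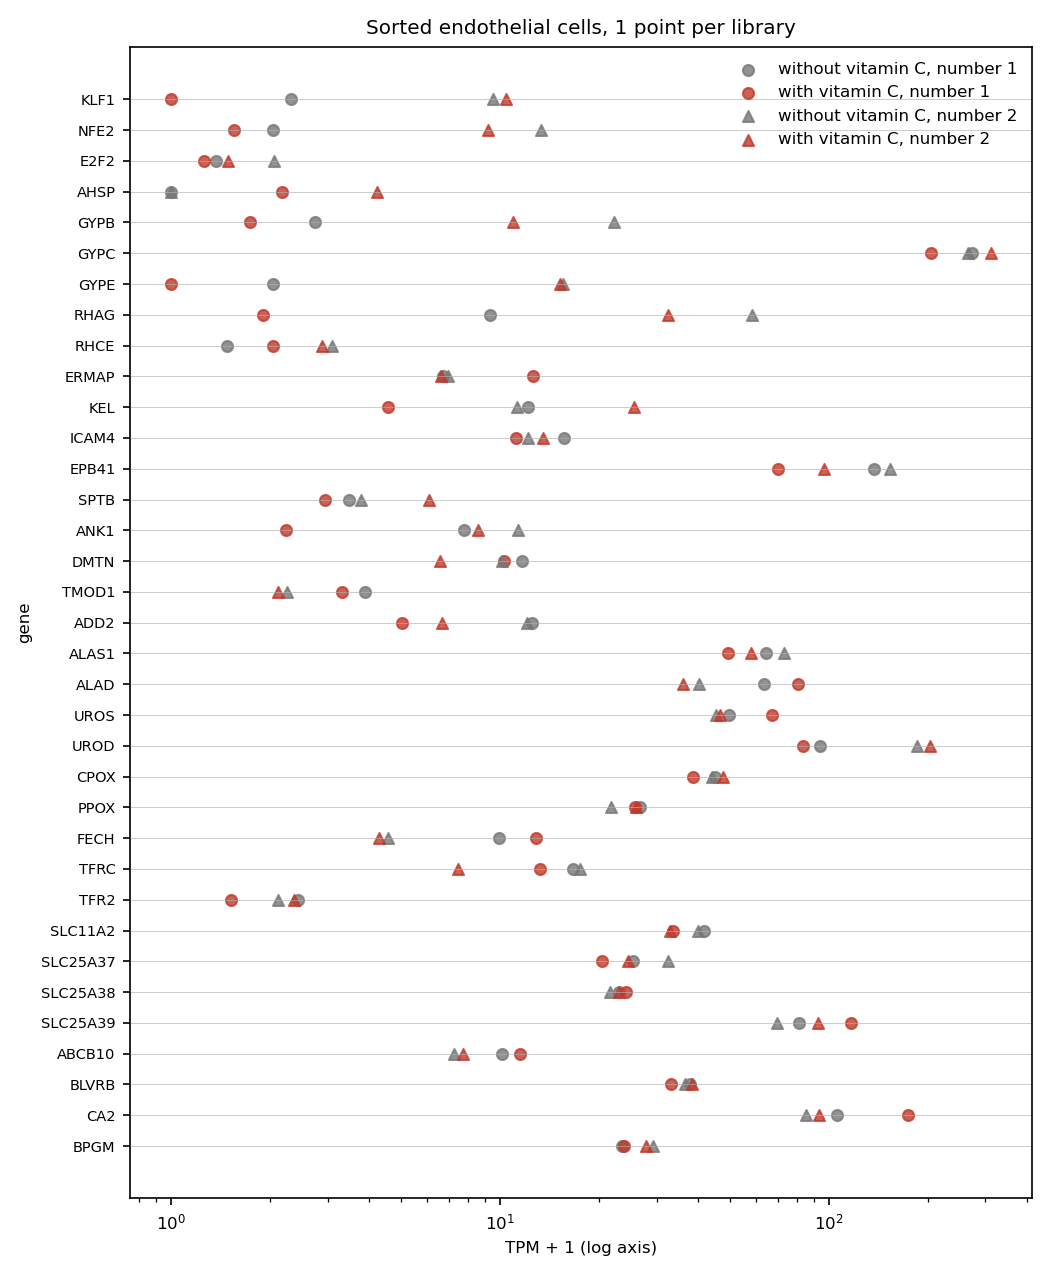
TPM + 1 (log axis) of the 35 of 42 genes that reached 1 TPM in at least 1 of the 4 sorted libraries; circles are libraries numbered 1 and triangles those numbered 2, grey without and red with vitamin C by the titles. For KLF1, NFE2, GYPB, GYPE and RHAG both triangles lie to the right of both circles, whatever the colour.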

How the data were processed

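The 13 tables of the course and the cell fractions hold whole-number counts of reads per Ensembl gene, as deposited by the authors, and the 4 tables of sorted cells hold values read here as TPM from their sums, with no depth given in the sources used here. Per the labels' protocols, Trizol was used for extraction and a TruSeq kit, fed 1 µg, for the libraries. The aligner HISAT2 2.0.4, the counter HTSeq 0.6.0, SAMtools 1.3.1 and DESeq 1.18.1 are named in the submitters' processing notes; the strand setting is not given in the sources used here, so a gene that overlaps another cannot be told apart from it. Among the members this touches GYPB, GYPE, RHCE, ERMAP, ICAM4, EPB41, EPB42, SPTB, ANK1, TMOD1, ADD2, ALAS2, CPOX, PPOX, PKLR, CA1 and CA2.

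CPM are counts over the library total. Single libraries were compared with 0.5 CPM added and exact 95% Poisson intervals. The course was fitted with edgeR 4.0.16 (quasi-likelihood, TMM, filter by condition), the sorted cells with limma 3.58.1 on log2(TPM + 1) for genes at 1 TPM or more in 2 libraries, both in R 4.3.3, with Benjamini-Hochberg adjustment over all genes at 0.05. DESeq2 1.42.0, other scalings, filters, pseudocounts and left-out libraries were alternatives. The fits were tested on simulated data: over the course, 87% of genes given a 2-fold vitamin C effect were found, and in the sorted cells 5%. The course effect was simulated as equal at all 5 times. The 87% therefore does not apply to genes whose effect changes between times, such as NFE2 and GYPE. Exon lengths are from GENCODE 29, as the union of all exons of a gene. Members and lists were chosen with earlier results of these data known. By rule, every library's value is given for members called in a course test or at 20 CPM or more in suspended cells, the others by range. Some items are not reported here.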

Additional observations from a re-analysis of the deposited data

Results flagged for a closer look

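The effect of vitamin C at 24 to 60 h differed from that at 0 h, by an interaction test in edgeR chosen after seeing the data, for NFE2 (log2 difference of the effects 2.94), GYPE (3.54), RHAG (2.02) and TFRC (1.30). At 0 h the log2 ratio of the library with to that without vitamin C was -1.55 for NFE2, -1.56 for GYPE, -1.01 for RHAG and -0.86 for TFRC, and at 60 h it was 1.34, 2.54, 1.66 and 0.76. RHAG did not pass without the 36 h or the 48 h library of either condition, nor in DESeq2, while NFE2, GYPE and TFRC passed in each of these. No 0 h library could be left out of this contrast, since each condition has 1, and the test measures no spread at 0 h.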

How the results depend on the processing

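Suspended against adherent cells gave 4282 genes past the rule, 2377 with 5 CPM added and 1585 at 4-fold, with 1 member lower, 2 with TMM over the 13 libraries and 0 at 4-fold. For 96 against 60 h, 2854 genes became 1224 with 5 CPM added and 966 at 4-fold, 23 members higher became 15 at 4-fold, and 1 lower became 0 with 5 CPM added, with TMM and at 4-fold. The vitamin C effect over the course gave 923 genes, 1591 with no filter and 28 with no term for time, and 0 members, 5 with no filter and 6 without the 0 h pair; without 1 library each it gave 485 to 1167 genes and 0 to 7 members. The slope with vitamin C gave 215 genes and 3 members, 693 and 6 in DESeq2, 438 and 5 with no filter, 64 and 1 with time ranks, and 1 to 588 genes and 0 to 5 members without 1 library each. The slope without it gave 614 genes and 1 member, 1241 and 2 in DESeq2, 0 members with time ranks, and 134 to 999 genes and 0 to 2 members without 1 library each. The difference in slope gave 0 genes and 10 in DESeq2. The 24 against 0 h contrast gave 2900 to 5202 genes and 9 to 16 members without 1 library each, and 60 against 24 h gave 1740 to 4456 genes and 4 to 15 members. The change of the vitamin C effect after 0 h gave 197 genes, 482 with no filter and 127 to 258 without 1 library each. With an onset threshold of 0.5 CPM, 2 members had their onset after 0 h with vitamin C in place of 4. With 2 CPM, 11 had no onset by 60 h without vitamin C in place of 7. The cause was not tested in any of these.

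In the sorted cells the vitamin C effect gave 0 genes, 0 to 1 without 1 library each, and 156 genes and 4 members grouped by the descriptions. With the replicate number as a block it gave 0 genes and 0 members; the deviations of same-numbered libraries had a correlation of 0.56, and with 2 pairs the samples share only a number. In simulated data with the size of the sorted comparison 40% of 4-fold changes were found, which limits what its count of 0 can show. The 4 members called by the descriptions, all higher with vitamin C, were lower with it by the titles, with log2 differences of -0.54 for KLF1, -0.46 for NFE2, -0.84 for GYPB and -0.53 for GYPE, none past the test.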
